A study of Mus musculus with 36 samples.

Results

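The pyruvate dehydrogenase kinases Pdk1, Pdk2, Pdk3 and Pdk4, with their substrate subunit Pdha1 and the opposing phosphatase Pdp1, make up a set of 6 genes that was followed in mouse astrocytes exposed to dexamethasone, a synthetic glucocorticoid. The members were found by gene symbol: 5 stood in the deposited symbol column under these names, and Pdp1 stood there under its synonym Ppm2c. They are carried by 8 probes of 45281 on the array, and all 6 were among the 20637 genes tested, each on 1 probe. For all 6, that probe was above background on all 36 arrays.

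The pyruvate dehydrogenase complex of mitochondria converts pyruvate, the end product of glycolysis, to acetyl-CoA, which then enters the citrate cycle or lipid synthesis. The kinases switch the complex off by phosphorylating the alpha subunit of its first enzyme, and the phosphatases switch it on again. Pdk4 is known from muscle, liver and heart as the isoform that starvation and glucocorticoids induce, and astrocytes are known for a high rate of glycolysis with release of lactate.

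The cells were primary cortical astrocyte cultures of C57B/6 mice taken at postnatal days 0 to 2, with the culture protocol of the labels naming cortex or hippocampus. Culture days 9 to 11 and 10% serum were the same for every group. One arm had received about 100 nM dexamethasone and the other vehicle, for 8 exposure times: 15 min (0.25 h), then 1, 2, 4 and 6 h, and lastly 12, 18 and 24 h. Each arm held 18 arrays, with 3 per group at 2 h and 4 h and 2 per group at the other times. The labels do not say whether replicates came from separate cultures, so the p-values below take in only the scatter among these arrays, whether technical or not. The titles of the vehicle arrays of 2, 4 and 6 h carry an added suffix that the labels leave unexplained.

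On all arrays, 10 of 12 astrocyte markers were above background, as were 8 of 9 tested microglia markers, 5 of 10 oligodendrocyte lineage markers, 6 of 6 tested fibroblast and pericyte markers, 5 of 6 tested neuron markers and 1 of 7 tested endothelial markers. Markers of other cell types were thus detected beside those of astrocytes. The summed intensity of the microglia markers was 1374 to 10277 on dexamethasone arrays and 1599.6 to 11935 on vehicle arrays, and it was 7358 or more on every 0.25 h and 1 h array of both arms and on replicate 1 of vehicle at 12 h. In bulk RNA, fewer cells of a type and less RNA per cell cannot be told apart. No pair of arrays in a group was identical, and their correlations over the tested genes were 0.964 to 0.997.

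Values are given as the deposited normalized intensity, a linear brightness in arbitrary units. Differences are log2 differences, dexamethasone minus vehicle, of background-corrected values with their standard error (SE). A call means a limma p under 0.05 after Benjamini-Hochberg adjustment over all 20637 genes. Levels of different genes come from different probes and are not set against each other.

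The bases before the transcription start of Pdk4, the member whose level changed, and of Pdk2, the kinase with the next largest average difference, are shown because known regulators of these genes act at DNA. Both are RefSeq windows of GRCm38.p6 with 250 bases, read 5′ to 3′ on the minus strand. RefSeq windows were at hand for 5 of the 6 members. Capitals mark matches, on either strand, to 4 short motifs: TGTTCT, the half-site of the glucocorticoid receptor, GTAAACA, the core bound by FoxO factors, CCAAT, bound by NF-Y, and CACGTG, the E-box.
Pdk4, chr6:5496279-5496528: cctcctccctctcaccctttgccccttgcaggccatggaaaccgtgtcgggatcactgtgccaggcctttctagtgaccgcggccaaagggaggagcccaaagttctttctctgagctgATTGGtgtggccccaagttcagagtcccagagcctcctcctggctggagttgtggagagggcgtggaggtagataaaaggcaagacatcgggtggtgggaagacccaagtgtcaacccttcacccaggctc
Pdk2, chr11:95041372-95041621: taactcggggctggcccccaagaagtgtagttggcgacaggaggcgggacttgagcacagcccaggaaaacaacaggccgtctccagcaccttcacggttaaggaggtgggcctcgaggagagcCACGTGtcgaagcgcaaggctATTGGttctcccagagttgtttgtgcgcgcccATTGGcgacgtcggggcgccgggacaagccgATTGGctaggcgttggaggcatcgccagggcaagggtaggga
The Pdk4 window held 1 CCAAT match, at positions -131 to -127 counted from the start, written above as its reverse complement ATTGG. The Pdk2 window held 3 CCAAT matches and 1 E-box, and none of these matches overlap. Neither window held TGTTCT or GTAAACA. Over 32851 RefSeq windows of the same length, 33.8% held CCAAT, 16.1% TGTTCT, 6.02% CACGTG and 3.17% GTAAACA. A match is a description of letters, and sites outside these windows were not searched.

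Pdk4 was the member that rose under dexamethasone. It was higher at each of the 7 times from 1 h to 24 h, by 2.23-fold at 1 h and 11.1-fold at 6 h, while none of the other 5 members passed at any time or on average in the fit of the 16 group means. Other fits called some of them, as given below for each. The average over the 8 times was 2.40 (SE 0.07, adjusted p = 1e-18, limma), the 11th highest of 20637 genes. On average 11.8% of all genes were called, 5.17% higher and 6.65% lower.

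Pdk4 had intensities of 604 and 528 on the dexamethasone arrays of 0.25 h, against 699 and 604 on the vehicle arrays. At 1 h the values were 1201 and 1015 with dexamethasone, against 571 and 463 with vehicle. At 2 h they were 2354, 3852 and 3157 with dexamethasone, against 563, 667 and 604 with vehicle. The arms thus lay apart in the upward direction from 1 h on, whereas at 0.25 h both dexamethasone arrays were just below the vehicle arrays.

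At 4 h Pdk4 reached 5859.5, 5901 and 5142 with dexamethasone, against 597, 749 and 579 with vehicle. At 6 h it was 6102 and 6559.6 with dexamethasone, against 562 and 644 with vehicle. At 12 h it was 5760.1 and 3880.4 with dexamethasone, against 696 and 614 with vehicle. The 12 h arrays of dexamethasone were farther apart from each other than those of 6 h or 18 h, and replicate 2 was the lower one.

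At 18 h the intensities of Pdk4 were 6688 and 6498 with dexamethasone, against 748 and 791 with vehicle. At 24 h they were 5078 and 7401.5 with dexamethasone, against 726 and 753 with vehicle. From 4 h to 24 h every dexamethasone array therefore stood above 3880, and no vehicle array of any time was above 791.

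**Figure D1:**
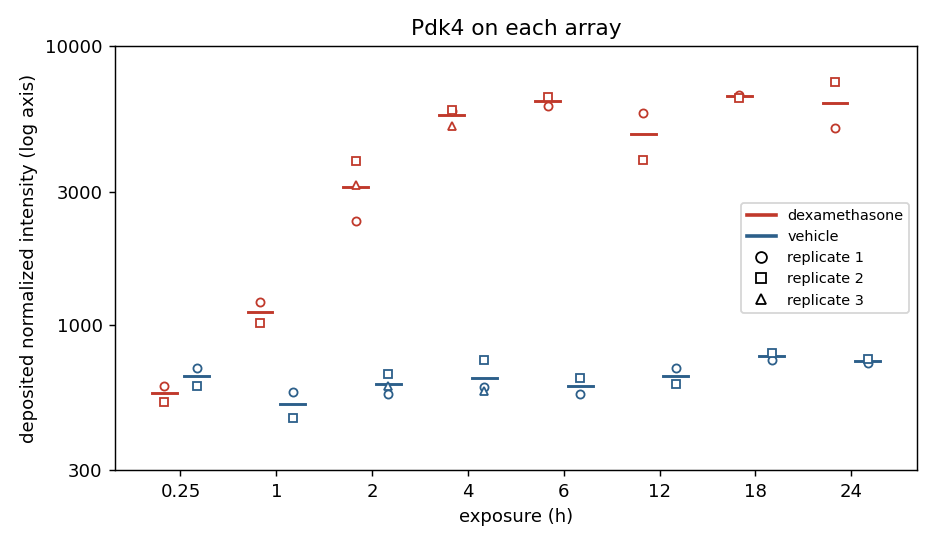
Deposited normalized intensity of Pdk4 (log axis) on each of the 36 arrays against hours of exposure, dexamethasone in red at the left and vehicle in blue at the right of each time, with replicates as symbols and the group mean as a bar. Dexamethasone arrays lie between 528 and 604 at 0.25 h and between 5142 and 5901 at 4 h, and vehicle arrays stay between 463 and 791 throughout.

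The log2 difference of Pdk4 was -0.22 (SE 0.22) at 0.25 h, where 0% of all genes were called by limma and 206 of 20637 had an unadjusted p under 0.05. It was 1.16 (SE 0.22, adjusted p = 0.028) at 1 h, where Pdk4 was 1 of 14 genes called (0.0678%). It was 2.39 (SE 0.18, adjusted p = 1.2e-09) at 2 h, with 0.707% of all genes called. At 4 h and 6 h the differences were 3.21 (SE 0.18, adjusted p = 1.4e-12) and 3.47 (SE 0.22, adjusted p = 3.8e-11), with 2.36% and 2.08% of all genes called by limma. At 12, 18 and 24 h they were 2.92, 3.16 and 3.11 (SE 0.22 each), with adjusted p of 5.7e-10, 1.6e-10 and 3.2e-10 in limma. The shares of all genes called at these times were 5.67%, 3.61% and 3.87%. The kinase transcript was thus called at a time when few other genes were, and it kept its rise to the last time measured.

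The call at 1 h is the least firm. Leaving out any of the 4 arrays of that time ended it, with adjusted p of 0.12 to 0.86, as did array weights (adjusted p = 0.072), the fit of the 1 h arrays alone (adjusted p = 1) and the mean of both Pdk4 probes (0.70, adjusted p = 0.063, all limma). The fit of the 12 h arrays alone gave an adjusted p of 0.052 at that time.

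The response of Pdk4 differed across the 8 times, with an F of 35.2 on 7 degrees of freedom (adjusted p = 1.7e-08, limma), a test passed by 2.74% of all genes. The mean response of 12, 18 and 24 h exceeded that of 1, 2 and 4 h by 0.81 (SE 0.17, 95% confidence interval 0.46 to 1.16, adjusted p = 0.0031), where 4.89% of all genes were called. Between neighbouring times the response grew by 1.37 between 0.25 h and 1 h (95% confidence interval 0.73 to 2.01, adjusted p = 0.30, limma), by 1.24 between 1 h and 2 h (0.65 to 1.82, adjusted p = 0.21) and by 0.82 between 2 h and 4 h (0.30 to 1.34, adjusted p = 0.87). Later steps were 0.26, -0.55, 0.24 and -0.05, with intervals that all include 0. None of the 7 single steps passed the adjustment over all genes. In order of time the steps had 0%, 0.0581%, 0.0388%, 0%, 0.107%, 0.00485% and 0.00485% of all genes called by limma, and at 1 h minus 0.25 h 302 genes had an unadjusted p under 0.05, so the course rests on the differences at each time and on the F-test.

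The second Pdk4 probe stayed near background, with 87.3 to 122 on dexamethasone arrays and 79 to 108 on vehicle arrays, where 91.7 was the background limit. It was above that limit on 14 of 18 dexamethasone arrays and 6 of 18 vehicle arrays. Its average difference was 0.19 (SE 0.08, adjusted p = 0.14, limma over all probes). The average over both probes was 1.30, against 2.40 for the bright probe alone, with an adjusted p of 9.6e-17 in limma.

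Markers of other cell types were read in the same comparison, in which 5.17% of all genes were called higher on average and 6.65% lower. Of the 9 tested microglia markers 2 were lower on average, Cx3cr1 at -0.54 and Aif1 at -0.51, and of the 7 tested endothelial markers Flt1 was higher at 0.39. Of the 10 oligodendrocyte lineage and 6 tested neuron markers 0 passed on average in either direction, and of the 12 astrocyte markers 5 were higher and 1 lower. Of the 6 tested fibroblast and pericyte markers 1 was higher, Ogn at 0.62 (limma).

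At single times, 3 of 9 microglia markers were lower at 12 h, with a list median of -1.27, and 1 of 10 oligodendrocyte lineage markers, with a median of -0.68. At that time 3.47% of all genes were called lower. The summed microglia markers at 12 h were 7358 on vehicle replicate 1 and 1599.6 on vehicle replicate 2, against 2013 and 1374 with dexamethasone. At 12 h the high sum was thus on 1 vehicle array, and the marker tests were not repeated without it. No microglia marker was called at 18 h or 24 h, where the list medians were -0.12 and -0.15. The list median was -0.22 on average and 0.13 at 1 h and at 6 h. Ogn was higher at 6, 12, 18 and 24 h, and Flt1 at 24 h. The summed fibroblast and pericyte markers were 50944 to 66755 on dexamethasone arrays from 6 h to 24 h, against 42308 to 50207 on vehicle arrays of these times, so that the arms lay apart from 6 h on, as those of Pdk4 did from 1 h on. Probes at high intensity, Acta2 and Ogn, make up most of that sum. The summed astrocyte markers also lay apart at 6, 18 and 24 h, with dexamethasone above, and overlapped at 12 h. At 18 h they were 121847 and 119467 with dexamethasone, against 102705 and 98958 with vehicle. Of the 12 astrocyte markers 5 were higher at 18 h, and 5 were higher and 1 lower at 24 h (limma). The summed microglia markers at 1 h were 10277 and 7895 with dexamethasone, against 8917 and 7845 with vehicle. The part of these cell types in the rise of Pdk4 was not tested.

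**Figure D2:**
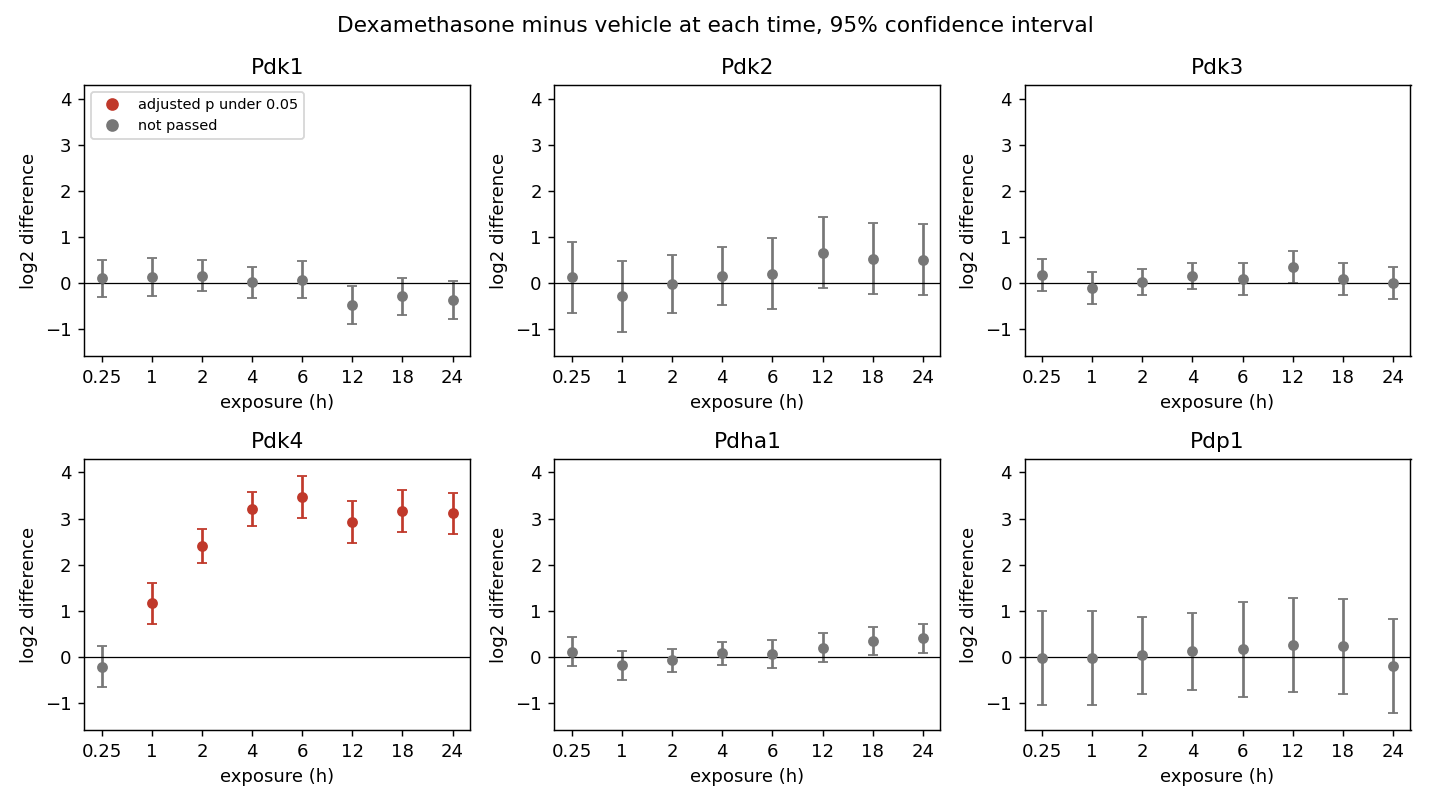
Log2 difference, dexamethasone minus vehicle, of each member against hours of exposure, with 95% confidence intervals from the limma fit and calls at an adjusted p under 0.05 in red. Pdk4 is called from 1 h (1.16) to 24 h (3.11), and no other member is called in this fit.

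Pdk1, a kinase isoform known as a target of hypoxia-inducible factor, had a slightly higher mean with dexamethasone than with vehicle before 12 h and a lower one from 12 h on, without a call at any time in the fit of group means. Its average difference was -0.09 (SE 0.07, adjusted p = 0.56, limma). At 12 h it had 351 and 306 on the dexamethasone arrays, against 587 and 340 on the vehicle arrays. At 18 h it had 358 and 359 with dexamethasone, against 418 and 447 with vehicle, and at 24 h 364 and 414 with dexamethasone, against 509 and 472 with vehicle. The arms did not overlap at 18 h and 24 h and overlapped at all earlier times. The share of all genes whose arms did not overlap is not given here.

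The differences of Pdk1 at 12, 18 and 24 h were -0.49, -0.30 and -0.37 (SE 0.20 each), with adjusted p of 0.19, 0.81 and 0.51 in limma. In all 6 pairs of equal time and replicate number from 12 h on the dexamethasone array was the lower one, and in 9 of the 12 pairs before 12 h it was the higher one. Arrays of equal number did not deviate together at 18 h and 24 h (correlations -0.05 and -0.13), so the pairs there are matches by number alone. The share of all genes that were one-sided in these 6 pairs is not given here. The response of 12, 18 and 24 h minus that of 1, 2 and 4 h was -0.48 (95% confidence interval -0.80 to -0.17, adjusted p = 0.074, limma). With arrays of equal time and number paired as a block this was called (adjusted p = 0.011, limma), as were 13.6% of all genes. So was the 12 h difference (adjusted p = 0.037, with 18.6% of all genes). The block also pairs the 18 h and 24 h arrays by number. Array weights called the 18 h difference (adjusted p = 0.038), again with 18.6% of all genes. The vehicle array of 587 at 12 h was also the one with summed microglia markers of 7358, against 1599.6 on the other vehicle array of that time and 2013 and 1374 with dexamethasone. Without that array the 12 h difference of Pdk1 was -0.06, and without the other vehicle array it was -0.91 (adjusted p = 0.0037).

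Pdk2, the most widely expressed kinase isoform in tissues, had its larger differences late, in the direction opposite to that of Pdk1. At 18 h it had 279 and 254 with dexamethasone, against 199 and 192 with vehicle, and at 24 h 297 and 252 with dexamethasone, against 208 and 199 with vehicle. At 12 h the arrays of a group were far apart, with 649.9 and 242 for dexamethasone, against 354 and 196 for vehicle. The arms lay apart at 6, 18 and 24 h, with dexamethasone above, and overlapped at the other 5 times. With so few arrays per arm such a separation is not a call, and the share of all genes showing it is not given.

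The differences of Pdk2 were 0.65, 0.52 and 0.50 at 12, 18 and 24 h (SE 0.37 each), with adjusted p of 0.42, 0.86 and 0.71 in limma. Before 12 h they ran between -0.29 at 1 h and 0.20 at 6 h. Its average difference was 0.23 (SE 0.13, 95% confidence interval -0.03 to 0.49, adjusted p = 0.32), and late minus early was 0.61 (0.02 to 1.21, adjusted p = 0.33, limma). The replicate block called the average (adjusted p = 0.018, with 24.2% of all genes), late minus early (adjusted p = 0.011, with 13.6%) and 12 h (adjusted p = 0.029, limma, with 18.6%). At 18 h array weights (adjusted p = 0.024, with 18.6% of all genes) and a fit of the 18 h arrays alone (adjusted p = 0.014, with 16.7%) called it. All 6 pairs from 12 h on had the dexamethasone array higher, against 6 of the 12 earlier pairs, with the same limits as for Pdk1. Without replicate 1 of dexamethasone at 12 h, the array of 649.9, the difference at that time was -0.13; without replicate 2 it was 1.44 (adjusted p = 0.036, limma), and the average was then 0.33 (adjusted p = 0.049).

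Pdk3, the kinase encoded on the X chromosome, ranged from 653 to 1087 on dexamethasone arrays and from 654 to 1076 on vehicle arrays, with medians of 893 and 825. Its average difference was 0.09 (SE 0.06, 95% confidence interval -0.03 to 0.21, adjusted p = 0.42, limma). Its largest difference stood at 12 h, where it had 1087 and 1029 with dexamethasone, against 764 and 928 with vehicle, a difference of 0.34 (SE 0.17, adjusted p = 0.32, limma). The arms lay apart at 12 h and 18 h and overlapped at the other 6 times, again without a share of all genes. Its late minus early response was 0.12 (adjusted p = 0.84).

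**Figure D3:**
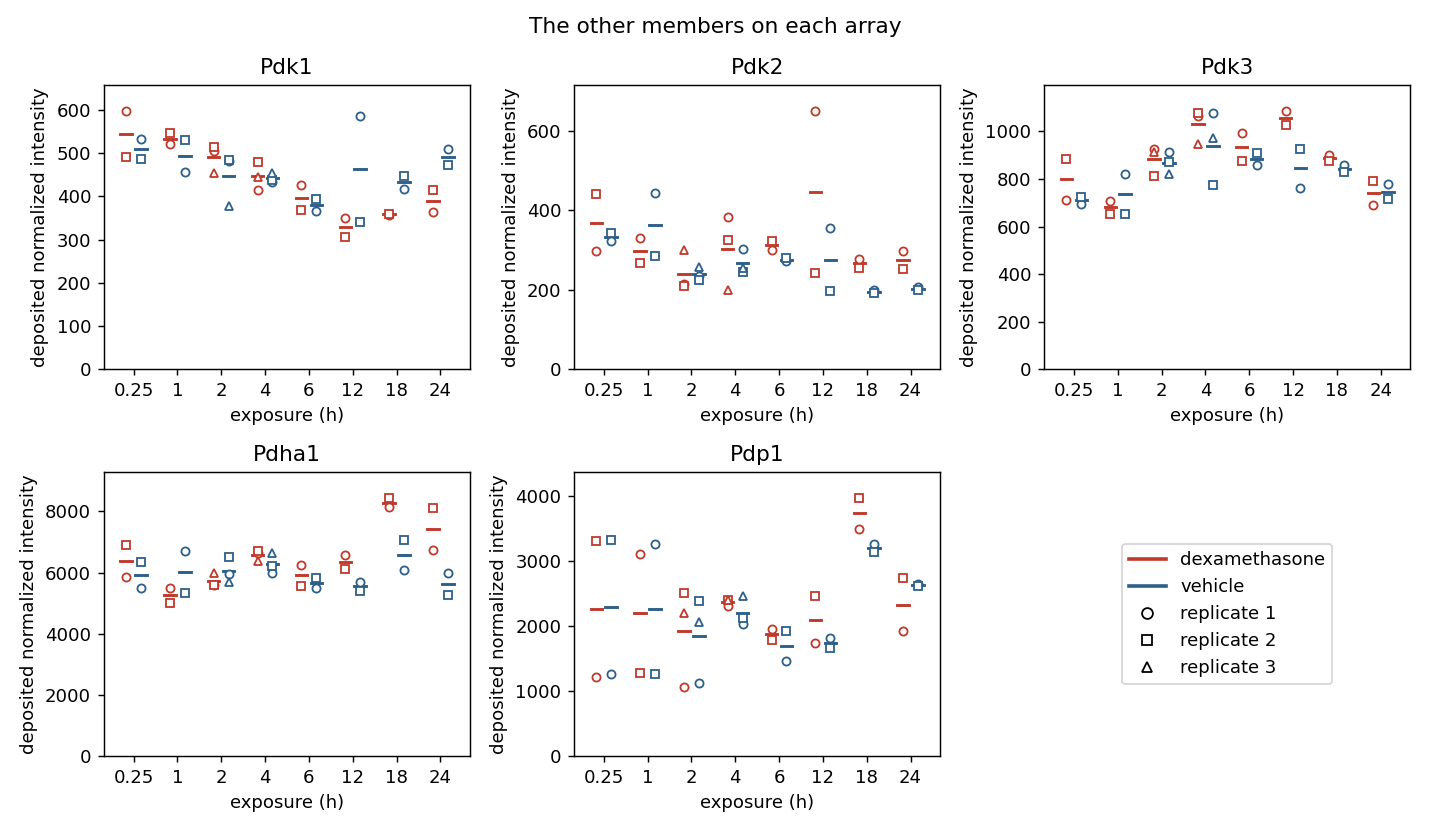
Deposited normalized intensity (linear axis from 0, its own scale in each panel) of Pdk1, Pdk2, Pdk3, Pdha1 and Pdp1 on each array against hours of exposure, dexamethasone in red at the left and vehicle in blue at the right, with replicates as symbols and group means as bars. Pdk1 is lower and Pdha1 higher on both dexamethasone arrays at 18 h and 24 h, without a call in the fit of group means. The replicates of Pdp1 lie far apart at 0.25, 1 and 2 h in both arms.

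Pdha1 encodes the alpha subunit of the first enzyme of the complex, the protein that the kinases phosphorylate. Its probe read 5011 to 8449 on dexamethasone arrays and 5254 to 7075 on vehicle arrays. At 18 h it had 8124 and 8449 with dexamethasone, against 6073 and 7075 with vehicle, and at 24 h 6726 and 8098 with dexamethasone, against 5992 and 5254 with vehicle. At 12 h it had 6572 and 6117 with dexamethasone, against 5698 and 5407 with vehicle. The dexamethasone arrays were thus above the vehicle arrays at 12, 18 and 24 h, and the arms overlapped at all earlier times. Here too the share of all genes with such a separation is not given.

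The differences of Pdha1 were 0.19, 0.34 and 0.40 at 12, 18 and 24 h (SE 0.15 each), with adjusted p of 0.61, 0.38 and 0.20 in limma. The average was 0.11 (SE 0.05, 95% confidence interval 0.01 to 0.22, adjusted p = 0.19). Late minus early was 0.38 (0.14 to 0.61), at an adjusted p of 0.062. That comparison passed with 5 other settings (no background correction, an offset of 50, the mean of a gene's probes, a trended robust prior and the replicate block), at adjusted p of 0.022 to 0.048 in limma. In this order they called 5.19%, 5.19%, 4.74%, 4.76% and 13.6% of all genes. Pdha1 has 1 probe, and its estimate was 0.37 to 0.38 in all of them. These settings rest on the same arrays and are not independent. Array weights called the 18 h difference (adjusted p = 0.0069, limma), with 18.6% of all genes.

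Pdp1 encodes the catalytic subunit of the calcium-sensitive pyruvate dehydrogenase phosphatase, which removes the phosphates that the kinases place. It showed no call, with an average difference of 0.06 (SE 0.17, 95% confidence interval -0.28 to 0.41, adjusted p = 0.91, limma) and differences between -0.20 at 24 h and 0.25 at 12 h. Its replicates differed more than its arms did. At 0.25 h the 2 dexamethasone arrays read 1220.5 and 3309, against 1267 and 3330.4 on the vehicle arrays of the same numbers.

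At 1 h Pdp1 read 3118 and 1278 with dexamethasone, against 3260 and 1263 with vehicle. At 2 h it read 1070.2, 2511 and 2203 with dexamethasone, against 1123, 2388 and 2061 with vehicle. At these 3 times arrays of equal number in the 2 arms were close and arrays of the same arm were up to 2.71-fold apart, and at 0.25 h and 1 h the high array carried a different number. The summed microglia markers at 0.25 h were 8463 and 9975 with dexamethasone, against 9363.5 and 11935 with vehicle, and their part in this spread was not tested.

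At 18 h Pdp1 read 3496 and 3981 with dexamethasone, against 3273 and 3136 with vehicle, and at 24 h 1920.0 and 2741 with dexamethasone, against 2649 and 2615 with vehicle. The residual standard deviation of Pdp1 between replicates was 0.55 on the log2 scale without regard to the numbers and 0.17 when arrays of equal time and number were paired. For Pdk4 these were 0.21 and 0.14, for Pdk2 0.40 and 0.22, for Pdk1 0.19 and 0.14, for Pdk3 0.14 and 0.15 and for Pdha1 0.11 and 0.11. The interval of Pdp1 at a single time, -1.06 to 0.99 at 0.25 h, was accordingly wide. The second Pdp1 probe, which read 86.5 to 1048 with dexamethasone and 95.2 to 722 with vehicle, had an average difference of 0.31 (SE 0.40, adjusted p = 0.79, limma over all probes), and at 0.25 h it was again high on replicate 2 of both arms, at 684 with dexamethasone and 689 with vehicle.

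**Figure D4:**
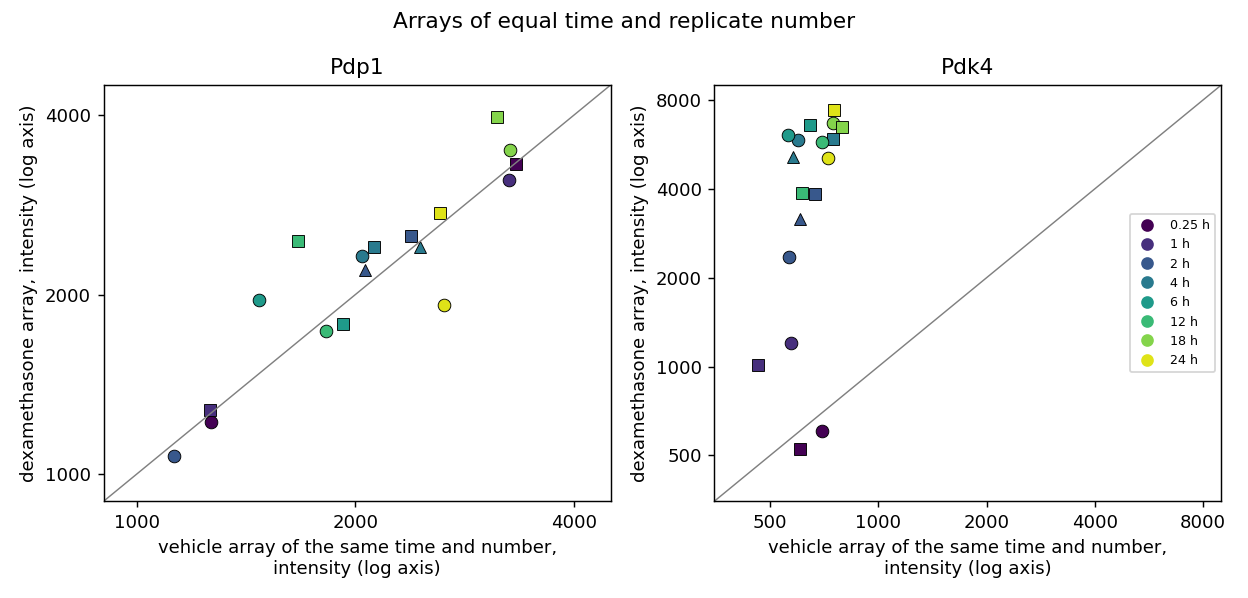
Intensity on the dexamethasone array against that on the vehicle array of the same time and replicate number (log axes, line of equality in grey), for Pdp1 at the left and Pdk4 at the right, coloured by time with replicates as symbols. Points of Pdp1 spread along the line from about 1070.2 to 3981, and 16 of 18 points of Pdk4 lie above it.

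Vehicle arrays were compared across time as a measure of the members' level without the drug. None of the 6 members passed the F-test over the 8 vehicle groups (adjusted p of 0.30 to 0.82, limma), which 15.7% of all genes passed. Vehicle levels of 18 and 24 h against those of 2, 4 and 6 h gave no call among the members, with 20.1% of all genes called; Pdp1 differed by 0.64 (adjusted p = 0.15) and Pdk2 by -0.45 (adjusted p = 0.18). Vehicle levels of 0.25 and 1 h against 2, 4 and 6 h gave 1 call, Pdk3 at -0.32 (SE 0.10, adjusted p = 0.04), with 12.6% of all genes called. In that comparison the title suffix of the 2, 4 and 6 h vehicle arrays, the time and the microglia markers cannot be told apart. Summed microglia markers were 7845 to 11935 on vehicle arrays of 0.25 and 1 h. On those of 2, 4 and 6 h they were 1638 to 2779. Leaving out any 1 of 9 arrays ended the call.

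Genes around the complex were read next. For the counts of this and the following lists, 5.17% of all genes were called higher on average and 6.65% lower. A single call in a list of 14 or 15 genes is near these shares. Of 7 other genes of the pyruvate dehydrogenase complex 5 were tested, and 0 rose and 0 fell on average. Pdhb, the beta subunit of the first enzyme, differed by 0.09 (adjusted p = 0.69), Dlat, the acetyltransferase core, by -0.06 (adjusted p = 0.74) and Pdp2, the second phosphatase, by 0.22 (adjusted p = 0.21, limma). The median of these 5 genes was 0.08, against -0.01 over all genes. Of the 6 members and these 5 genes together, Pdk4 was the one that passed.

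Of the 5 genes of the branched-chain ketoacid dehydrogenase group, a related complex with a kinase of the same family, 2 rose on average. Ppm1k, its phosphatase, rose by 0.87 (adjusted p = 4.7e-11) and Dbt, its core acyltransferase, by 0.30 (adjusted p = 0.0018, limma). Ppm1k was not called at 0.25, 1 or 2 h and stood at 1.06 to 1.51 from 4 h to 24 h. Its kinase Bckdk, the relative of the Pdk genes, differed by -0.08 (adjusted p = 0.88). The median of the group was 0.20.

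Of 10 tested genes of other pyruvate routes 2 rose, Gpt2, the mitochondrial alanine aminotransferase that links pyruvate and alanine, by 0.59 (adjusted p = 8.2e-05) and Me2, a mitochondrial malic enzyme that makes pyruvate, by 0.21 (adjusted p = 0.018, limma). Gpt2 stood at 1.28 and 1.30 at 4 h and 6 h and at -0.16 at 12 h. Ldha, the lactate dehydrogenase subunit, differed by -0.03 (adjusted p = 0.90). Of 15 citrate cycle genes Fh1, fumarate hydratase, was the 1 that fell, by -0.25 (adjusted p = 0.038); its other probe gave 0.10 (adjusted p = 0.77, limma over all probes). Of 15 glycolysis genes 1 rose, the astrocyte aldolase Aldoc, by 0.75 (adjusted p = 5.9e-10), with 1.35 on its other probe. Medians of these 3 lists were 0.02, -0.01 and -0.02.

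Of 14 tested genes listed under mitochondrial fatty acid oxidation 1 rose, with a list median of 0.10. Acsl3, an acyl-CoA synthetase known for lipid droplet formation, rose by 1.41 (adjusted p = 2.8e-13, limma). Cpt1a, which admits fatty acids to mitochondria and stood above background on 5 of 36 arrays, differed by -0.14 (adjusted p = 0.27). The other 13 genes of the list did not pass.

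Of 10 transcription factors known to act on Pdk genes in other tissues 4 rose on average and 0 fell, with a median of 0.13. Over all genes 5.17% rose and 6.65% fell. Foxo3 rose by 0.78 (adjusted p = 8.5e-10), Cebpb by 0.77 (adjusted p = 7.4e-05) and Foxo1 by 0.24 (adjusted p = 0.0039, limma). Ppara was the fourth, but it stood above background on 2 of 36 arrays. Foxo3 was first called at 2 h, at 1.01, and Pdk4 at 1 h; whether their courses differ was not tested. Nr3c1, the glucocorticoid receptor, differed by -0.25 (adjusted p = 0.34) and the coactivator Ppargc1a by 0.18 (adjusted p = 0.78).

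Of 10 classic glucocorticoid targets 9 rose, Fkbp5 by 3.22, Tsc22d3 by 2.14 and Sgk1 by 2.13 among them, and the tenth, Dusp1, stood at 0.14 (adjusted p = 0.13, limma). The list median was 1.86, so that the 2.40 of Pdk4 lay within the range of this list. At 1 h Pdk4 stood at 1.16, Tsc22d3 at 1.23 (adjusted p = 0.005), Sgk1 at 1.20 (adjusted p = 0.60) and Fkbp5 at 0.49 (adjusted p = 1.0, limma).

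**Figure D5:**
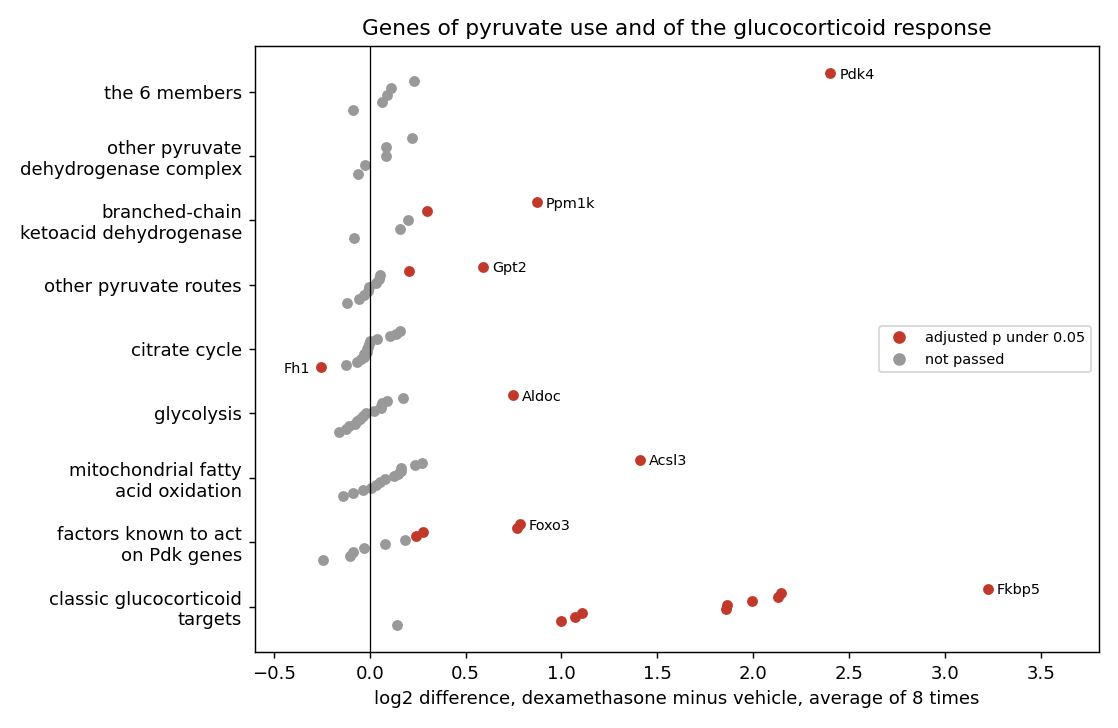
Average log2 difference over the 8 times, dexamethasone minus vehicle, of each tested gene in 9 lists, with limma calls at an adjusted p under 0.05 in red. Pdk4 at 2.40 stands apart from the other 5 members, which lie between -0.09 and 0.23, and Fkbp5 at 3.22 is the highest gene of the classic targets.

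The genes whose 16 group means ran most like those of Pdk4 were sought by Pearson correlation among 7717 genes with a range of group means of at least 1. They were Fam107a (r = 0.979), Mapk4 (0.976), Fkbp5 (0.976), Hacd2, listed as Ptplb (0.975), and Ctsl (0.973). For Pdk2 they were Lcat (0.960), Mmp24 (0.921) and Ctnnbl1 (0.914), and for Pdp1 Mrrf (0.962), Acbd5 (0.959) and Arid5b (0.956). The group means share arrays and vehicle groups among genes, and these values are descriptions. The group means of Pdk4 spanned 3.77 on the log2 scale, those of Pdp1 1.17, of Pdk2 1.15, of Pdk1 0.79, and of Pdk3 and Pdha1 0.66 each.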

How the data were processed

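Total RNA was labelled and put on Illumina BeadChips, and GenomeStudio served to process them, per the submitters' processing notes and the labels' protocols. The deposited table holds linear intensity values for 45281 probes on 36 arrays; their sorted values are nearly equal between arrays (medians 93.7 to 94), as quantile normalization leaves them, a step seen from the values alone. A further deposited table has 72 columns that match no label; these were not used, and only its symbols were read. Symbols were single for 45223 probes; 40 turned into dates and 18 with several symbols were left out.

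Intensities were background corrected by normexp (offset 16) and put on the log2 scale. Probes above 91.7, the 99th percentile of a background centred on the mode of 70.2, on at least 2 arrays were kept (29502), and the probe with the highest mean stood for each gene (20637). On each array 51.4% to 51.5% of probes were above that level. R 4.3.3 with limma 3.58.1 fitted 16 group means (20 residual and 5.23 prior degrees of freedom). Signal over background and the number of arrays limit the precision. The fit was tested on simulated data with known changes and noise drawn independently for each array. The simulation held no shared deviation of arrays of equal number, which is described below. Figures used matplotlib 3.10.9.

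The members and gene lists were chosen with earlier results of these data known. All members are named, and of each list the called genes with the 3 largest average differences, besides 10 genes named in any case. One gene of the fatty acid oxidation list was left out of it and is not reported here. Alternatives were the background correction and offset, the dim filter, every probe or the mean of probes, array weights, a trended robust prior, a replicate block, arrays of a time alone, leaving out each array, and leaving out 12 h.

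Arrays of equal number in the 2 arms deviated together at 2 h (correlations 0.68 to 0.86 over 3 pairs) and 4 h (0.35 to 0.57 over 3 pairs), so the numbers were taken to pair arrays there; the block changed no member's call at these times. With 2 pairs per time the correlations were 0.80 at 0.25 h, 0.73 at 1 h, 0.03 at 6 h, 0.51 at 12 h, -0.05 at 18 h and -0.13 at 24 h.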

Additional observations from a re-analysis of the deposited data

Results flagged for a closer look

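The response of Pdk4 differed between exposure times. The test across all 8 times gave an F of 35.2 (adjusted p = 1.7e-08, limma), and the response of 12, 18 and 24 h minus that of 1, 2 and 4 h was 0.81 (adjusted p = 0.0031). That contrast leaves out 6 h, the time of the largest response (3.47). The response at 4 h (3.21) was already above those of 12, 18 and 24 h (2.92, 3.16 and 3.11), while those of 1 h and 2 h were lower (1.16 and 2.39). Dexamethasone arrays were higher than the vehicle array of the same time and number in 16 of 16 pairs from 1 h on, and in 0 of 2 pairs at 0.25 h. Groups of 2 or 3 arrays were too small for a search for single outlying arrays.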

How the results depend on the processing

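The average rise of Pdk4 and its calls at 2, 4, 6, 18 and 24 h held under every alternative tried; taking the mean of both probes gave 1.30 for the average. At 1 h the call was lost with the mean of probes (0.70), array weights (1.16) and the 1 h arrays alone (1.16), and leaving out 1 array gave 1.00 to 1.32; the count of members called was then 0, and 0 to 1 when 1 array was left out. The 12 h arrays alone gave 2.92 without a call (0 members). The number of members called was otherwise 1 and moved as follows. At 18 h it was 4 with array weights (Pdk1, Pdk2, Pdha1 and Pdk4; 3841 of all genes, against 746) and 2 in a fit of 18 h alone (Pdk2 and Pdk4; 3447 genes). At 12 h array weights called 293 genes and the 12 h arrays alone 23, against 1171. For late minus early it was 2 without background correction, with an offset of 50, the mean of probes or the trended robust prior (Pdk4 and Pdha1). These settings called 4.74% to 5.19% of all genes. Leaving out 1 array gave 1 to 2 members for the average, at 12 h and for late minus early, and 0 to 1 step between neighbouring times. For vehicle across time it was 1 with array weights and 1 without 12 h, against 0. For vehicle 18 and 24 h against 2, 4 and 6 h it was 3 with array weights, against 0. The fit of group means called 15.7% and 20.1% of all genes in these comparisons. Shares of all genes under the other settings of the vehicle comparisons are not given here. For vehicle 0.25 and 1 h against 2, 4 and 6 h it was 0 with no filter on dim probes, with array weights and with the trended robust prior, and 0 to 1 without 1 array. The cause was not tested.

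With a replicate block, which pairs arrays of equal time and number, members called were 2 for the average (Pdk2 at 0.23, adjusted p = 0.018), 3 at 12 h (Pdk1 at -0.49, adjusted p = 0.037, and Pdk2 at 0.65, adjusted p = 0.029, limma), 4 for late minus early (Pdk1, Pdk2 and Pdha1 at adjusted p of 0.011, 0.011 and 0.027) and 2 steps of Pdk4 (adjusted p of 0.012 and 0.0088). It changed no other member's call. The calls on average and for late minus early use pairs of 18 h and 24 h, where arrays of equal number did not deviate together. With the block 4984 genes were called on average (24.2%), against 2439 without it, and 18.6% at 12 h and 13.6% for late minus early. At 24 h, crossing the numbers, an alternative chosen after seeing the data, gave 2459 genes and 1 member, against 2322 genes with equal numbers and 799 without a block.

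Directions of uncalled differences turned in a few cases. The mean of probes gave Pdp1 0.13 at 1 h and Pdk4 0.14 for 24 h minus 18 h. Array weights at 2 h gave Pdk2 0.012, Pdk3 -0.0024 and Pdp1 -0.022, and Pdp1 late minus early was -0.030 without 12 h. Leaving out 1 array gave these ranges across 0. For Pdp1 they were -0.027 to 0.16 on average, -0.77 to 0.70 at 0.25 h, -0.72 to 0.67 at 1 h, -0.30 to 0.42 at 2 h, -0.039 to 0.35 at 6 h, -0.0076 to 0.51 at 12 h, -0.46 to 0.060 at 24 h and -0.18 to 0.28 for late minus early. For Pdk2 they were -0.19 to 0.44 at 0.25 h, -0.64 to 0.066 at 1 h, -0.21 to 0.091 at 2 h, -0.081 to 0.46 at 4 h and -0.13 to 1.44 at 12 h. For Pdk3 they were -0.29 to 0.060 at 1 h, -0.016 to 0.088 at 2 h, -0.015 to 0.17 at 6 h and -0.11 to 0.092 at 24 h. For Pdk1 they were -0.057 to 0.25 at 0.25 h, -0.042 to 0.070 at 4 h and -0.042 to 0.18 at 6 h, and for Pdha1 -0.0094 to 0.22 at 0.25 h and -0.031 to 0.14 at 6 h. For steps of Pdk4 they were -0.051 to 0.52 for 18 h minus 12 h and -0.32 to 0.23 for 24 h minus 18 h. Signal over background limits the second Pdk4 probe, Cpt1a and Ppara.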
